A study of Mus musculus with 17 samples.

Results

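The cytoplasmic ribosomal protein genes were followed across Klf3 genotypes in whole mouse embryos at E12.5. Members were the probe sets whose single annotated symbol begins with Rpl or Rps and a digit, or is Rplp0, Rplp1, Rplp2 or Rpsa. The S6 kinase genes (Rps6k), Rps19bp1 and pseudogene symbols ending in -ps were left out. This gave 109 of the 39137 probe sets of the array, standing for 68 genes. The large subunit (Rpl symbols) had 64 probe sets of 42 genes, and the small subunit (Rps symbols) had 45 probe sets of 26 genes. All 68 genes were matched in the RefSeq mouse gene table, where 2 of them (Rpl6l and Rps4l) are listed as pseudogenes. Because some probe sets of Rps12, Rpl23a and Rps19 held identical values, the 109 probe sets carried 102 distinct sets of values.

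Ribosomal proteins coat the ribosomal RNA of the small subunit, which reads the mRNA, and of the large subunit, which joins amino acids. Their mRNAs begin with a run of pyrimidines, the terminal oligopyrimidine tract, through which growth signals control their translation together. In the human, mutations in many of these genes cause Diamond-Blackfan anemia, a failure of red cell production, and in the mouse genome most of the genes have processed pseudogene copies scattered over other chromosomes. KLF3 is a zinc finger repressor that binds CACCC boxes. An array probe measures any RNA that carries its sequence, so a probe set cannot separate a gene from a near-identical copy.

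RNA of 17 embryos was hybridized to 17 Affymetrix 2.0 ST arrays. There were 4 WT embryos, 4 Klf3 H275R/+ heterozygotes, 3 Klf3 H275R/H275R homozygotes, 4 embryos homozygous for the CH allele and 2 heterozygous for it. H275R is an ENU-induced point mutation of KLF3 whose line was kept on C57BL/6J. CH is a gene trap in intron 1 of Klf3 that came from 1 embryonic stem cell line, and its mice had a mixed genetic background. Embryos were litter-matched where this could be done, but the litters, the line of each WT embryo and the sex are not given in the labels. The background and the allele therefore cannot be told apart in any comparison between the lines, and p-values measure the spread between these embryos only. In whole embryos, fewer cells of a type and less RNA per cell cannot be told apart.

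Klf3 itself gave 5.27 to 6.13 in the 4 CH homozygotes and 9.09 to 9.80 in the other 13 arrays (deposited log2 values). This is in keeping with the CH homozygote labels. The Klf3 level does not check the H275R labels or the CH heterozygote labels. Kdm5d, a Y-linked gene, was at 9.52 to 9.70 in CH heterozygote 1, CH homozygote 3, H275R homozygote 1 and WT 2, but at 3.79 to 4.46 in the others. The WT 4 array stood with the CH arrays for several members, so results that rest on it are given with and without it.

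Most ribosomal protein probe sets varied little among embryos. The median SD over the 17 arrays was 0.119 log2 units for the 109 members, against 0.159 for all probe sets. An SD under 0.1 was found for 33 members and an SD over 0.3 for 7 members. The mean over all members was 9.03 ± 0.034 in WT (SD, n = 4), 8.99 ± 0.027 in H275R heterozygotes (n = 4), 9.03 ± 0.0085 in H275R homozygotes (n = 3), 9.04 ± 0.034 in CH homozygotes (n = 4) and 9.10 ± 0.058 in CH heterozygotes (n = 2). The 7 members of large spread were Rps13 (SD 1.81), Rpl29 (0.561), Rpl3 (0.501), Rps3a1 (0.485), Rpl34 (0.337), Rps26 (0.329) and Rps20 (0.327), in each case through 1 probe set of the gene. Rps3a is annotated here as Rps3a1.

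**Figure D1:**
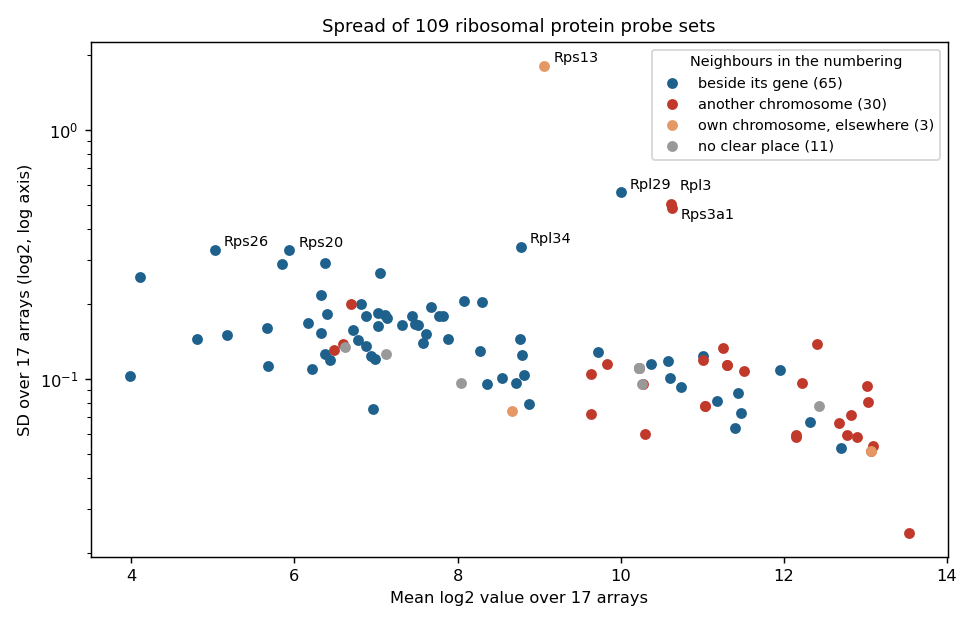
Spread of the 109 ribosomal protein probe sets. The x axis is the mean log2 value over 17 arrays and the y axis (log scale) is the SD over the same arrays; colors give the place of each probe set in the numbering of the array, and names are given where the SD is over 0.3. Most members sit near the median SD of 0.119, and Rps13 stands alone at 1.81.

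Probe sets of this array are numbered along the genome, so the chromosome of the numbered neighbors shows where a probe set lies. A probe set was taken to have a clear place where at least 8 of the 10 nearest placed probe sets (5 on either side) belonged to the same chromosome, and to lie beside its gene where at most 20 protein-coding genes separated them. Of 22934 clearly placed probe sets, 0.702% were not beside the gene they are annotated to. Of 98 clearly placed members, 33 were not (33.7%): 30 lay among probe sets of another chromosome and 3 elsewhere on their own. The bright probe set of Rps3a1, a chromosome 3 gene, lay among chromosome 13 genes next to Pde4d. The Rpl3 probe set of large spread lay on X, whereas the gene is on chromosome 15. The Rps13 probe set lay on chromosome 7 between Tyr and Tmem135, with 412 protein-coding genes between the nearest of its neighbors and Rps13. Names are kept below as the annotation gives them.

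Rps13, a small subunit protein at the contact with the large subunit, varied more than any other member. Its value was 10.08, 10.06, 9.92 and 5.74 in WT 1 to 4, and 9.94, 10.15, 9.99 and 9.67 in the 4 H275R heterozygotes. The 3 H275R homozygotes gave 10.17, 10.07 and 10.04. The 4 CH homozygotes gave 9.32, 5.50, 4.85 and 9.13, and the 2 CH heterozygotes gave 10.28 and 9.11. The arrays thus fell at 3 levels, with WT 4 and CH homozygotes 2 and 3 lowest, CH homozygotes 1 and 4 and CH heterozygote 2 between 9.11 and 9.32, and all others between 9.67 and 10.28. These levels cut across genotypes, and CH homozygotes differed from WT by -1.75 log2 units with no call by limma (SE and adjusted p over all probe sets: 1.04 and 0.66). Without WT 4 the difference was -2.82, which was not called.

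A probe set annotated to Rps13 together with Rps13-ps4 and Gm15483, and so not a member, ran the other way. It was at 6.68, 6.56, 6.37 and 9.88 in WT 1 to 4 and between 6.15 and 6.69 in the 7 H275R arrays. The CH homozygotes gave 9.02, 9.76, 9.58 and 8.97, and the CH heterozygotes gave 6.53 and 9.67. The 6 arrays that were in the 2 lower levels of the Rps13 probe set were the 6 arrays above 8.9 here. Another probe set shared by these 3 symbols spanned 5.56 to 7.22 over the 17 arrays, and one shared by Rps13 and Snord14a spanned 7.69 to 8.45.

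**Figure D2:**
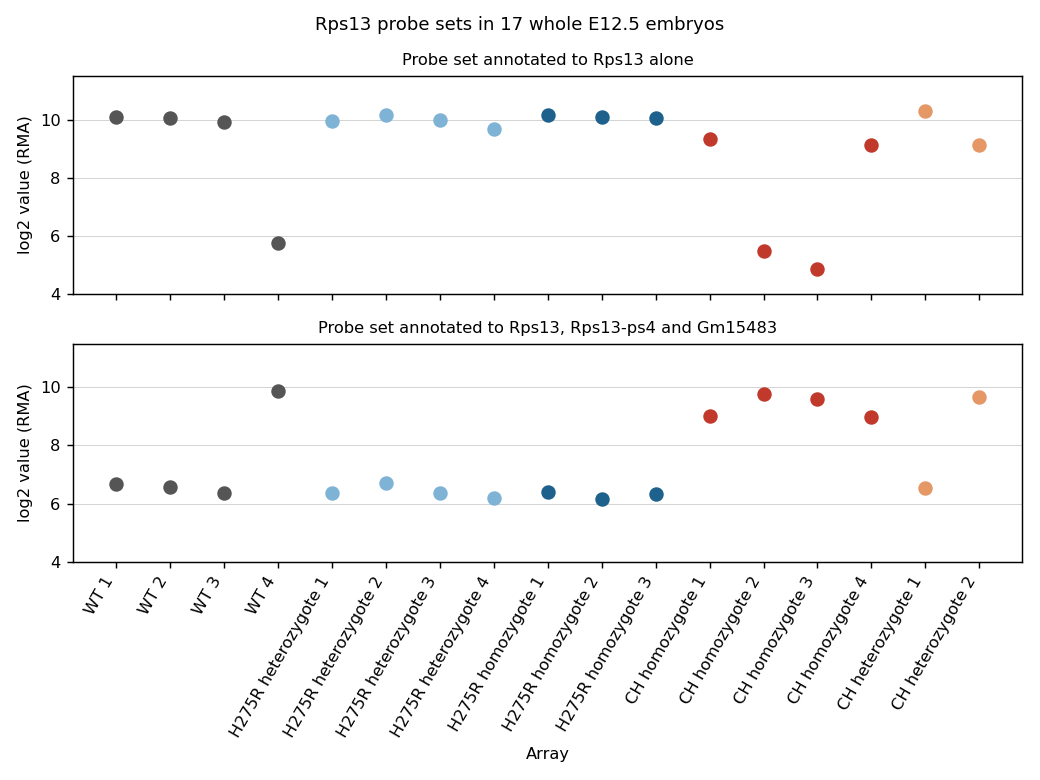
Rps13 probe sets in the 17 arrays. The x axis lists the arrays by genotype and the y axis is the deposited log2 value; the upper panel is the probe set annotated to Rps13 alone and the lower panel the probe set annotated to Rps13, Rps13-ps4 and Gm15483. WT 4 reads 5.74 above and 9.88 below, apart from the other 3 WT arrays.

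The start regions of Rpl34, Rpl9, Rps3a1 and Rps13 are shown because KLF3 binds CACCC boxes, and because Rpl34, Rpl9 and Rps3a1 were called between genotypes and Rps13 varied most. Those of Rpl29 and Rpl3 were not analysed here. Each is the RefSeq window of 300 bases (GRCm38.p6, 250 before to 50 after the annotated start, read 5′ to 3′ on the minus strand that carries the gene), with CACCC or its complement GGGTG in capitals.
Rpl34 (chr3:130730288-130730587): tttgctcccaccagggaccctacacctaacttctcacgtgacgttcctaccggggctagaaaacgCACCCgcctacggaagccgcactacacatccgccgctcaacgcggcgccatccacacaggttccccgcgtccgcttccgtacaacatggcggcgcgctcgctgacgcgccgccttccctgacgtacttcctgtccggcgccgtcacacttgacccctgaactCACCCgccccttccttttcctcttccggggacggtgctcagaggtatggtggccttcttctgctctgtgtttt
Rpl9 (chr5:65391382-65391681): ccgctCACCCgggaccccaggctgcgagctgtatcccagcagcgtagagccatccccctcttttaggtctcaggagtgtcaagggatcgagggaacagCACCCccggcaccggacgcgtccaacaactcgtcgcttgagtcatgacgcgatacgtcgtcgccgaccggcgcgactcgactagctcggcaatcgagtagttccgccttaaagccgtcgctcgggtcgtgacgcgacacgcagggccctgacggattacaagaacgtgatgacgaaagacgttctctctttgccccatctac
Rps3a1 (chr3:86142619-86142918): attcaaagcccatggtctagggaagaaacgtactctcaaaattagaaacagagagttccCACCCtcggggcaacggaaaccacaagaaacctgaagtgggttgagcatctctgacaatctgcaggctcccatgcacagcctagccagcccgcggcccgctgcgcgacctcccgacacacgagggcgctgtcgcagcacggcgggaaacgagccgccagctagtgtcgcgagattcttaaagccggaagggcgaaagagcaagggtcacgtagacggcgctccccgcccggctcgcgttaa
Rps13 (chr7:116334141-116334440): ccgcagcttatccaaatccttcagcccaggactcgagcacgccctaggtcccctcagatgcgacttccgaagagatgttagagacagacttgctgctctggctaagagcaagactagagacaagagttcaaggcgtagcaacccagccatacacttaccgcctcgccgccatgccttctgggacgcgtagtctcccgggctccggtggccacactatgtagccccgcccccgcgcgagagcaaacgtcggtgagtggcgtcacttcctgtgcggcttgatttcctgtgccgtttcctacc
Rpl34 and Rpl9 held 2 boxes each, Rps3a1 held 1 and Rps13 held none. The called Rps3a1 probe set and the Rps13 probe set are numbered away from their genes. The windows of Rps3a1 and Rps13 are those of the named genes, not of the places of these probe sets. Start regions of the other called members (Rpl15, Rpl6, Rps9 and Rpl32l) are not shown. On either strand, CACCC was found for 31 of the 53 member genes with a window (58.5%), against 16166 of 27025 genes in the whole table (59.8%). A C followed by at least 4 more pyrimidines within 10 bases of the start, as in the terminal oligopyrimidine tract, was found for 28 of the 53 (52.8%) and for 28.8% of all genes. A match of letters is a description and not a binding site.

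Against WT, no ribosomal protein probe set was called in either H275R genotype. In H275R homozygotes 0 of 109 members were called by limma at an adjusted p under 0.1, beside 0.0128% of all probe sets. Under an unadjusted p of 0.05 there was 1 member (0.917%, against 5.06% of all probe sets). In H275R heterozygotes 0 were called, beside 0% of all probe sets, and 2 were under 0.05 unadjusted (1.83%, against 3.87% of all probe sets). The methods' t-test with the same adjustment called 0 in each. The H275R homozygotes and heterozygotes, compared with each other, gave 0 calls beside 0% of all probe sets, and 0 by the methods' t-test. Under 0.05 unadjusted there were 2 members (1.83%, against 3.18% of all probe sets). The difference lay within 0.25 log2 units for 104 members in homozygotes, and for 106 members in heterozygotes. The largest value in each was that of Rps13, at 1.14 and 0.99 above a WT mean that holds the low WT 4 array.

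The members with the largest differences among those whose arrays did not overlap were small in these comparisons. In H275R homozygotes against WT they were a Rpl4 probe set at 0.16 ± 0.10 (SE), Rpl17 at -0.11 ± 0.14 and Rpl10a at 0.09 ± 0.09. For H275R heterozygotes against WT it was a Rpl4 probe set, at -0.05 ± 0.05. Between the H275R genotypes they were Rpl7a at 0.25 ± 0.12, Rps3a1 (dim probe set) at 0.20 ± 0.08 and Rps20 at 0.18 ± 0.10 in homozygotes over heterozygotes. None of these passed the adjusted threshold. The share of all probe sets without overlap was not computed. In groups this small some probe sets separate by chance, so the lack of overlap is only a description.

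CH homozygotes, in which Klf3 mRNA was largely lost, also gave 0 called members against WT, beside 0.0588% of all probe sets. At an unadjusted p of 0.05 there were 9 members (8.26%, against 8.95% of all probe sets), and the methods' t-test called 0. The largest difference without overlap was in Rpl29, a large subunit protein whose loss in mice reduces growth. Rpl29 gave 10.19, 10.37, 10.40 and 10.27 in WT and 9.79, 8.72, 8.77 and 9.68 in CH homozygotes, so that all 4 CH homozygotes lay below all WT. The difference was -1.07 ± 0.21 (SE; adjusted p = 0.141 by limma). It was called without CH homozygote 1 (-1.25, adjusted p = 0.0380) and without CH homozygote 4 (-1.21, adjusted p = 0.0782). In the other 6 of the 8 fits without 1 array it was not called (adjusted p up to 0.337). The difference was smallest without CH homozygote 2 (-0.89). Next were a Rps9 probe set at -0.35 ± 0.08 and Rpl9 at 0.29 ± 0.07 (adjusted p = 0.25 for each). Without WT 4, 1 member was called, Rps3a1 at 0.77 (adjusted p = 0.0119), against 0.57 with it. WT 4 was singled out by its values at members that include Rps3a1, so this call is no independent support. Rps3a1 was not called in the other 7 fits without 1 array.

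Calls appeared where CH embryos were set against H275R embryos. The comparisons below share the CH arrays, and so are not independent of each other. Against H275R heterozygotes 4 members were called in CH homozygotes, 3 higher and 1 lower (3.67%, beside 0.951% of all probe sets). Rps3a1 was higher by 0.94 ± 0.16 (adjusted p = 0.0396), Rpl3 by 0.89 ± 0.21 (adjusted p = 0.0941) and Rpl9 by 0.34 ± 0.07 (adjusted p = 0.0781), and Rpl29 was lower, at -1.02 ± 0.21 (adjusted p = 0.0716). Among the 8 fits that each left out 1 array, Rps3a1 was called in 7, Rpl29 in 3, and Rpl3 and Rpl9 in 1 each, and with only the arrays compared Rps3a1 alone was called. Against H275R homozygotes 1 member was called, Rpl29 at -1.22 ± 0.23 (adjusted p = 0.0748), beside 0.164% of all probe sets. This call was made in 2 of the 7 fits without 1 array, and was lost with only the arrays compared (adjusted p = 0.276). Against WT, the 2 CH heterozygotes gave 1 called member, Rpl34 at -0.89 ± 0.12 (adjusted p = 0.0381), beside 0.00511% of all probe sets. CH homozygotes and CH heterozygotes differed in 0 called members, beside 0.00511% of all probe sets, and the methods' t-test called 0. Under 0.05 unadjusted there were 8 members (7.34%, against 5.44% of all probe sets). Rpl34 was 0.70 ± 0.12 higher in CH homozygotes than in CH heterozygotes without overlap, and missed the threshold (adjusted p = 0.321).

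**Figure D3:**
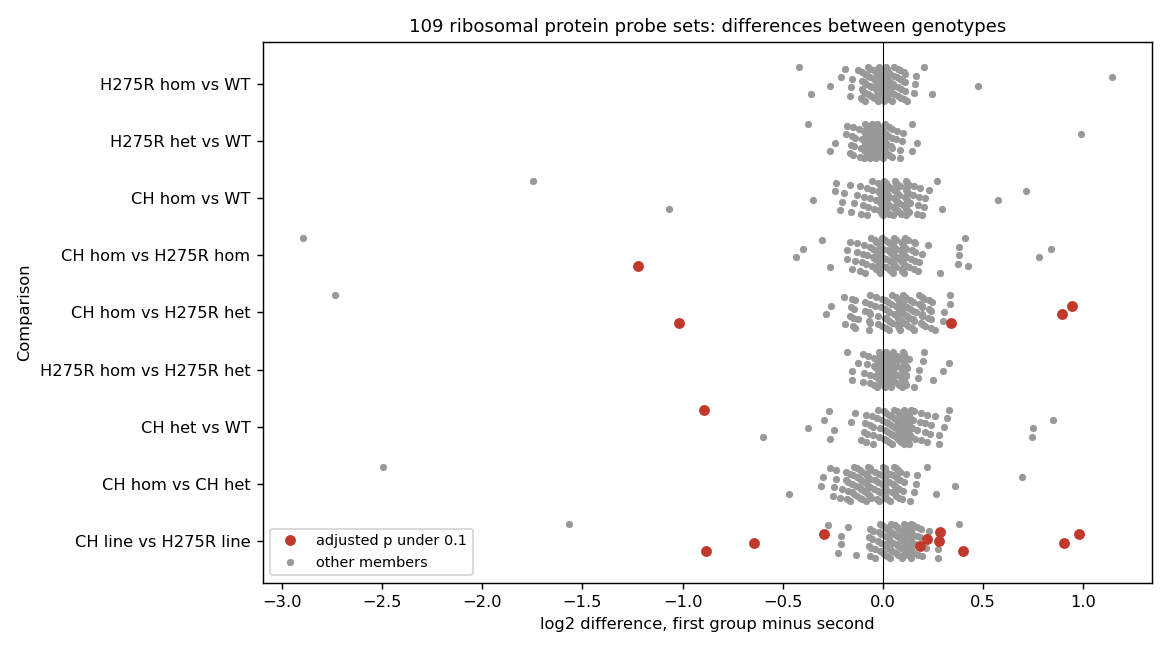
Differences of the 109 ribosomal protein probe sets in 9 comparisons. The x axis is the log2 difference, first group minus second, the y axis lists the comparisons, each point is a probe set, and red points had an adjusted p under 0.1. Most points lie within 0.25 of 0; the red ones are in comparisons that hold CH arrays, with 10 of them between the lines.

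More members were called between the 2 lines. With all 6 CH arrays set against all 7 H275R arrays (the mean of CH homozygotes and heterozygotes minus the mean of H275R homozygotes and heterozygotes), 10 members were called, 7 higher and 3 lower in the CH line. This is 9.17% of the members, beside 4.81% of all probe sets. At an unadjusted p of 0.05 there were 36 members (33.0%), against 6658 (17%) of all probe sets. The median member was 0.08 higher in the CH line, against 0.01 for all probe sets, and 83 of the 109 lay above 0. Members with identical values each count. The 2 CH heterozygotes carry the same weight here as the 4 CH homozygotes. CH heterozygotes against WT gave a median of 0.09, with 84 above 0 and 15.6% under 0.05 unadjusted (5.94% of all probe sets). CH homozygotes gave 0.02, 70 and 8.26% (8.95%) against WT, and 0.035, 63 and 13.8% (12.6%) against H275R homozygotes. Against H275R heterozygotes they gave 0.08, 78 and 23.9% (14.6%). In the moderated F test over the 5 genotypes, which takes no account of line, 2 members were called, Rpl34 (adjusted p = 0.0194) and Rps3a1 (adjusted p = 0.0511), beside 0.128% of all probe sets. Without WT 4, which was singled out by its values at these members, the F test called 5 members. The share of all probe sets in that fit is not given. Without CH heterozygote 2, 4 members were called between the lines, and without H275R homozygote 1, 6 were.

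Rps3a1, a small subunit protein at the site where mRNA leaves, differed between the lines without overlap through its bright probe set. It gave 10.35, 10.30, 9.98 and 10.03 in H275R heterozygotes and 10.31, 10.25 and 10.26 in H275R homozygotes. The CH homozygotes gave 11.01, 11.30, 11.00 and 11.13, and the CH heterozygotes gave 11.44 and 11.13. The lines did not overlap, and the CH line was higher by 0.98 ± 0.13 (1.97-fold; adjusted p = 0.00406). WT 1 to 3 gave 10.40, 10.26 and 10.35 and lay with the H275R line, while WT 4 at 11.14 lay within the CH range.

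Rpl3, a large subunit protein that reaches the peptidyl transferase centre, moved in the same direction through its probe set numbered on X. The 7 H275R arrays spanned 10.11 to 10.54. The CH homozygotes gave 11.68, 11.23, 11.08 and 10.48 and the CH heterozygotes 11.30 and 11.19, so that only CH homozygote 4 overlapped the H275R line. The difference was 0.90 ± 0.17 (adjusted p = 0.0214). WT 1 to 3 were at 10.26, 10.19 and 10.26, and WT 4 was at 10.90. CH homozygote 4, the lowest CH array here, was not low for Rps3a1.

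Rpl29 was lower in the CH line, at -0.89 ± 0.17 (adjusted p = 0.0244). The 7 H275R arrays spanned 9.98 to 10.61 and the 6 CH arrays 8.72 to 9.94, with CH homozygotes 2 and 3 lowest and CH heterozygote 1 highest. All 4 WT arrays, WT 4 included, lay in the H275R range. Without CH heterozygote 2 this call was lost (-0.77, adjusted p = 0.121).

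Rpl34, another large subunit protein, had the smallest adjusted p of all members between the lines. It gave 9.08, 9.11, 8.83 and 8.87 in H275R heterozygotes and 9.05, 9.01 and 8.93 in H275R homozygotes. It gave 8.72, 8.54, 8.55 and 8.96 in CH homozygotes and 8.08 and 7.91 in CH heterozygotes. The heterozygotes were lowest, and CH homozygote 4 overlapped the H275R line. The line difference was -0.64 ± 0.08 (adjusted p = 0.00313), and the methods' t-test, in which the 4 homozygotes weigh more, gave -0.52 (adjusted p = 0.107). WT gave 8.90, 8.82, 9.02 and 8.81. A brighter probe set annotated to Rpl34 and Rpl34-ps1, and so not a member, spanned 12.71 to 12.96 over the 17 arrays, with the CH heterozygotes at 12.71 and 12.79. The call of CH heterozygotes against WT was lost without either heterozygote and without WT 1, 2 or 3 (adjusted p from 0.103 to 0.172).

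Rpl9, a large subunit protein near the site where elongation factors bind, lies on chromosome 5 with Klf3, with 14 annotated genes between them, 8 of them protein coding. Through the probe set beside the gene it gave 6.42, 6.43, 6.28 and 6.46 in CH homozygotes and 6.28 and 6.21 in CH heterozygotes. The 7 H275R arrays spanned 5.90 to 6.11, with no overlap. The difference was 0.28 ± 0.06 (1.22-fold; adjusted p = 0.0275). WT 1 to 3 were at 5.97, 6.09 and 6.14, and WT 4 was at 6.23, inside the CH range.

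The other called members moved less. Rpl15, a large subunit protein and a Diamond-Blackfan anemia gene, was higher in the CH line by 0.18 ± 0.05 (adjusted p = 0.0631), with 12.27 to 12.37 in the CH arrays and 12.06 to 12.21 in the H275R arrays. The gene is on chromosome 14, but its 1 member probe set is numbered on chromosome 12. Rpl6, of the large subunit, was higher by 0.28 ± 0.08 (adjusted p = 0.0791), with overlap. Rpl32l was higher by 0.40 ± 0.12 (adjusted p = 0.0891), at a low level of 3.57 to 4.49 over these arrays. Rps9, a small subunit protein at the entry of the mRNA channel, was called through both its probe sets in opposite directions, at 0.22 ± 0.05 (adjusted p = 0.0470) and -0.29 ± 0.07 (adjusted p = 0.0499). Among the 13 fits that each left out 1 array of the lines, Rps3a1, Rpl3, Rpl34 and Rpl9 were called in all 13, Rpl29 in 12, each Rps9 probe set in 11, Rpl15 in 8, and Rpl6 and Rpl32l in 4.

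**Figure D4:**
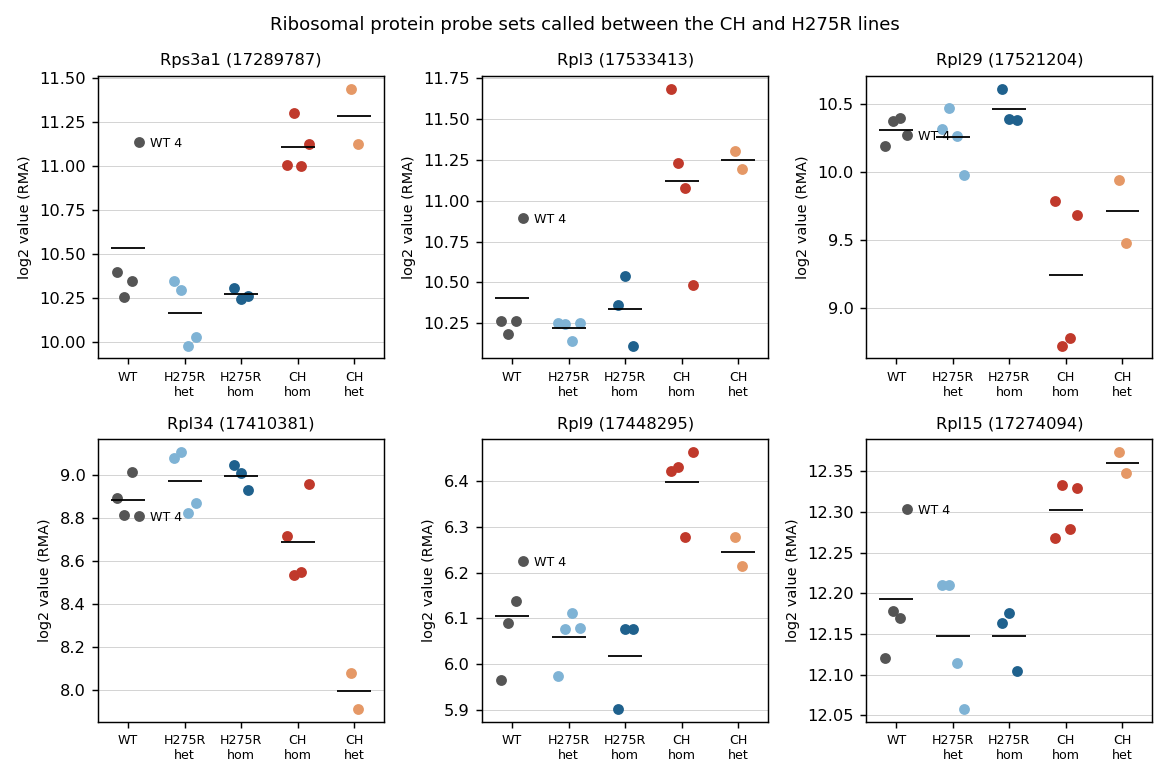
Ribosomal protein probe sets called between the lines. The x axis is the genotype and the y axis the deposited log2 value, with its own range in each panel; points are arrays and bars are group means, and WT 4 is marked. For Rps3a1, CH arrays read 11.00 to 11.44 and H275R arrays 9.98 to 10.35, with WT 4 at 11.14.

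The place of WT 4 was compared over the 10 members called between the lines. For 7 of them its value lay in the range of the CH line only, and for the other 3 (Rps9 at its dim probe set, Rpl29 and Rpl32l) in the range of the H275R line only. For Rpl34, 1 of the 7, WT 2 also lay in the CH range only, and WT 1 lay in the ranges of both lines. All WT arrays were nearer the H275R mean for Rpl34. For Rpl29 and Rpl32l, WT 4 lay within the range of WT 1 to 3. WT 1 to 3 were all nearer the H275R mean for 7 of the 10. The line of WT 4 is not given in the labels, and the WT group was used as labelled.

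Markers of other cell types also differed between the lines. Of 7 measured erythroid genes 3 were called (beside 4.81% of all probe sets), all higher in the CH line (Klf1, Tfrc and Ermap), and the mean of the 7 spanned 8.79 to 9.70 in CH arrays and 8.50 to 9.14 in H275R arrays. The mean of 10 hepatocyte genes spanned 8.46 to 10.1 and 8.72 to 9.38, with 1 gene called higher. The mean of 10 cartilage genes spanned 7.90 to 9.13 in the CH line and 8.28 to 8.49 in the H275R line, with Sox9 called lower, and was above 8.7 in CH heterozygote 2 and CH homozygotes 2 and 4, but below 8.1 in the other 3. Of the other cell type lists, 2 of 10 neuronal, 1 of 10 skeletal muscle and 2 of 10 endothelial genes were called, all lower in the CH line. Of 9 cell cycle genes 1 was called, Pcna, higher in the CH line, and 0 of 10 cardiac muscle genes, 0 of 3 embryonic globins and 0 of 3 Y-linked genes were called. The part of these cell types in the differences of the members was not tested.

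Several probe sets of a gene can be compared with each other within the same arrays. There were 25 such genes with 66 probe sets, giving 41 pairs of a probe set with the brightest of its gene. In 2 of these pairs both probe sets held identical values, and 39 were tested as a log ratio among 1300 pairs of the whole table. Several Rps12 pairs among the 39 hold the same values and so repeat 1 ratio. Between the lines, 5 of the 39 ratios were called (Rps3a1, Rps9, Rpl29, Rpl3 and Rpl9), beside 4.31% of all pairs. In CH homozygotes, 2 were called against WT (Rpl29 and Rps9), beside 0.385% of all pairs. Against H275R homozygotes 3 were called, beside 0.462% of all pairs, and against H275R heterozygotes 3, beside 0.769% of all pairs, for Rpl29, Rps3a1 and Rps9 each time. In CH heterozygotes against WT 1 was called (Rps3a1), beside 0.0769% of all pairs.

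For Rps3a1, the probe set numbered beside the gene on chromosome 3 gave 4.50 to 5.04 over the 17 arrays and differed by -0.05 ± 0.10 between the lines, against 0.98 for the set numbered on chromosome 13. The ratio differed by -1.03 ± 0.12 (adjusted p = 0.000314), mainly through the set numbered on chromosome 13. The set on chromosome 3 lies near the 3.79 to 4.46 of Kdm5d in its low arrays, so it may not register a change. For Rpl3, the brighter of the 2 probe sets on chromosome 15 differed by 0.14, against 0.90 for the set numbered on X (ratio -0.76 ± 0.19; adjusted p = 0.0549). Rpl29 had the opposite arrangement. The probe set beside the gene on chromosome 9 fell by 0.89 between the lines, whereas the set numbered on chromosome 1 stayed between 12.6 and 12.9 in all 17 arrays and differed by 0.04 (ratio -0.92 ± 0.16; adjusted p = 0.0133). For Rpl9, the set beside the gene differed by 0.28 and the set numbered on chromosome 13 by -0.03 (ratio 0.31 ± 0.09; adjusted p = 0.0891).

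Rps9 was split in direction within the gene. In WT, its brighter probe set gave 10.21, 10.35, 10.41 and 10.46, and its dimmer one 7.84, 7.77, 7.88 and 7.67. CH homozygotes gave 10.52, 10.48, 10.43 and 10.48 on the first and 7.54, 7.37, 7.34 and 7.52 on the second. The ratio of the probe sets was lower by 0.47 ± 0.10 in CH homozygotes than in WT (adjusted p = 0.0752) and by 0.51 ± 0.08 between the lines (adjusted p = 0.00754). Over the 17 arrays, which share scans and normalization between probe sets, 10 of the 39 pairs had a correlation below 0, the lowest for Rps9 (-0.59) and Rpl9 (-0.51).

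**Figure D5:**
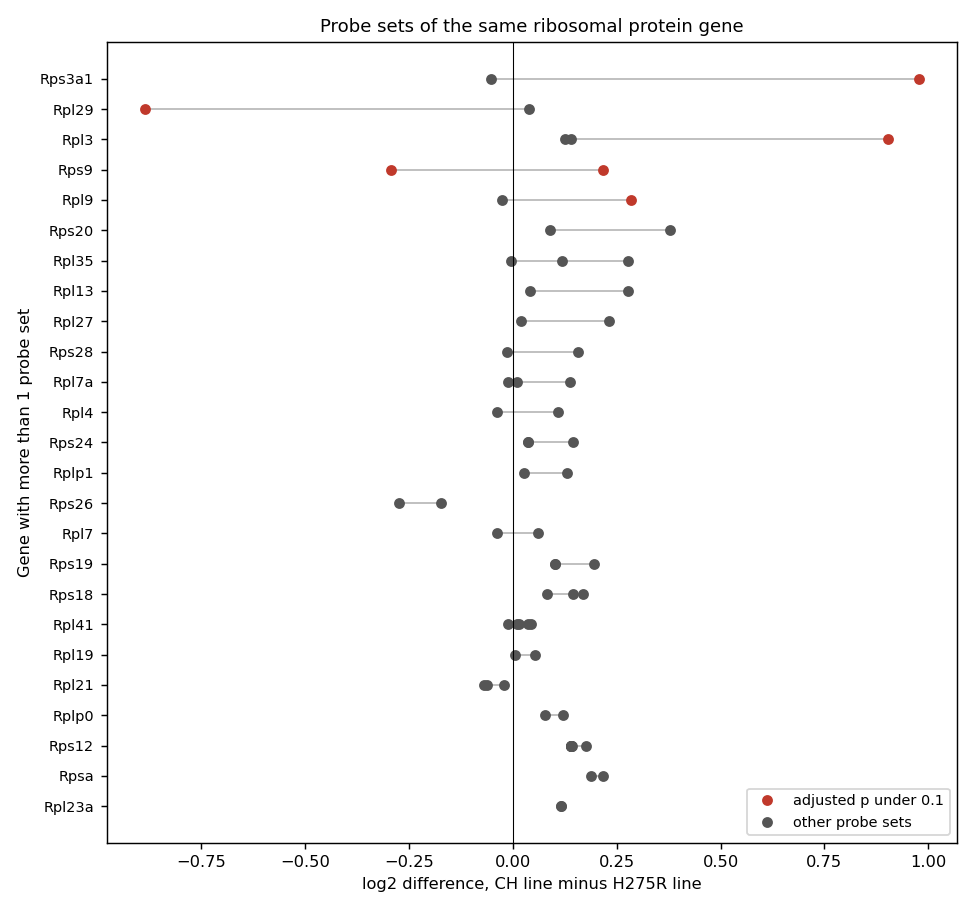
Probe sets of the same ribosomal protein gene. The x axis is the log2 difference, CH line minus H275R line, each row is 1 of the 25 genes with more than 1 probe set, points are probe sets joined by a line, and red points had an adjusted p under 0.1. Rps3a1 spans -0.05 to 0.98 and Rpl29 -0.89 to 0.04, and Rpl3 0.13 to 0.90.

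Calls between the lines were found at members beside their gene and away from it. Of the 30 members among probe sets of another chromosome 3 were called, against 7 of 65 beside their gene, 0 of 3 elsewhere on their own chromosome and 0 of 11 with no clear place. Over all probe sets the share was 4.81%, and the difference between these shares was not tested.

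Ribosomal proteins were also grouped by role, and their calls between the lines stand beside 4.81% of all probe sets. Each gene was counted once, through its brightest probe set. For Rplp0, Rps19, Rps24, Rps26, Rps28, Rpl27 and Rpl15, that probe set is numbered on another chromosome than the gene. The P stalk proteins Rplp0, Rplp1 and Rplp2, which recruit elongation factors, gave 0 of 3 calls in every comparison. Their differences between the lines ranged from 0.03 to 0.12. The dimmer probe sets of Rplp0 and Rplp1 differed by 0.08 and 0.13 and were not called. Of the 14 measured genes mutated in Diamond-Blackfan anemia, 1 was called between the lines (Rpl15) and 0 in CH homozygotes against WT, with a median difference of 0.09 and 0.01 (0.01 and -0.0036 for all probe sets). The tissue-restricted or variant paralogs Rpl3l, Rpl10l, Rpl22l1, Rpl39l, Rpl7l1 and Rps27l gave 0 of 6 calls between the lines, where their differences ranged from -0.07 to 0.07. Rpl10l and Rpl3l, known from testis and striated muscle, had means of 3.98 and 5.18 over the 17 arrays.

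Other genes of ribosome production were also measured. Of 21 measured ribosome biogenesis genes, 2 were called between the lines (beside 4.81% of all probe sets), both higher in the CH line: Nop58, a box C/D snoRNP protein, at 0.25 ± 0.07 (adjusted p = 0.0798), and Gnl3, a nucleolar GTPase, at 0.29 ± 0.06 (adjusted p = 0.0261). The same 2 were called in CH homozygotes against H275R heterozygotes, and 0 against WT, where 20 of the 21 lay above 0 with a median of 0.10 (median of all probe sets -0.0036). Of 14 translation factor and other terminal oligopyrimidine mRNAs 0 were called between the lines, with a median of 0.05. Of 71 mitochondrial ribosomal proteins 3 were called, Mrpl12 higher and Mrpl10 and Mrps27 lower in the CH line, a share close to the 4.81% of all probe sets. Of 10 p53 target genes 0 were called, and Fau, a small subunit gene outside the symbol rule, was not called and differed by 0.07.

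Many small nucleolar RNAs, which guide the modification of ribosomal RNA, are encoded inside ribosomal protein genes. The gene table places 44 of them inside 22 member genes, and 14 probe sets measured such RNAs. Between the lines 4 of the 14 were called (beside 4.81% of all probe sets), all higher in the CH line: Snord73a inside Rps3a1, Snora69 inside Rpl39, Snord42b inside Rpl23a and Snord72 inside Rpl37. Snord73a alone was called in CH homozygotes against WT, at 0.60 ± 0.10 (adjusted p = 0.0478), and was higher by 0.54 ± 0.08 between the lines (adjusted p = 0.00771). It is numbered next to the dim Rps3a1 probe set on chromosome 3, which did not differ, and not next to the one that did. At 4.50 to 5.04, that dim probe set may not register a change.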

How the data were processed

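The authors normalized the arrays by robust multiarray average (RMA), a procedure of background correction, quantile normalization between arrays and summary of the probes of each probe set, and named Partek Genomic Suite for their analysis. The values are log2 values as the authors deposited them, from 2.24 to 13.7, and were used without further normalization or filter. The number of arrays limits the precision. Whether all 17 arrays were normalized together is not given in the sources used here. Genes were named from the platform annotation, and 23521 of 39137 probe sets have 1 symbol. A linear model with genotype as its factor was fitted to each probe set by lmFit and moderated by eBayes (limma 3.58.1, R 4.3.3). It used the 15 WT, H275R and CH homozygous arrays, or all 17 where CH heterozygotes enter. Benjamini-Hochberg adjustment ran across all probe sets (over all 1300 pairs for ratios of probe sets of a gene), with calls made under 0.1, the false discovery rate used in the study. The fit was tested on simulated data.

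Named were Rpl29, Rpl9, Rpl34, Rps13 and Rps3a1, every called member, members of the largest SD, pairs that differ, paralogs and, where none was called, up to 3 members without overlap. Lists covered the P stalk, variant paralogs, Diamond-Blackfan anemia, translation factors, ribosome biogenesis, mitochondrial ribosomal proteins, p53 targets and cell types. The members and lists were chosen with earlier results of these data known. The probe sets of Rps13 and Rpl34 with several symbols were chosen after their values were seen, as was the numbering of probe sets.

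Alternatives were the replicate number as a block, only the arrays compared, all 17 arrays, an intensity trend, robust empirical Bayes, array quality weights, the methods' t-test (Student), a threshold of 0.05, renewed quantile normalization, median centring, only probe sets with 1 symbol or above the median level, 1 value per gene, and each array left out in turn. The labels do not say that replicate numbers mark a shared litter. RefSeq (GRCm38.p6) served for gene order and start regions.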

Additional observations from a re-analysis of the deposited data

Results flagged for a closer look

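Single arrays stood apart from the other 3 of their group by Dixon's criterion in 9 of 144 groups (48 named probe sets in the 3 genotypes with 4 arrays), in 8 probe sets. For probe sets not picked by their values, chance alone flags about 1 in 20 groups. The named ones were picked partly for large SD or calls in these arrays, so this rate does not hold for them. WT 4 accounted for 5 of the 9. In Rps13 it was at 5.74, below 9.92 to 10.08 in the other WT arrays. It was highest in Rps3a1, at 11.1 against 10.3 to 10.4, and in the Rpl3 probe set numbered on X, at 10.9 against 10.2 to 10.3. It was lowest in the bright Rpl29 probe set, at 12.6 against 12.8, and in Rpl21, at 13.0 against 13.1 to 13.2.

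The other 4 came from other arrays. WT 3 was lowest in the dim Rpsa probe set at 7.70. The other WT arrays all held the same value there, 7.88, so any differing array would have been flagged. H275R heterozygote 1 was lowest in Rpl22 at 8.40, and H275R heterozygote 3 was lowest in the Rpl3 probe set numbered on X at 10.1. CH homozygote 3 was highest in Rpl10l at 4.13, near the lowest levels of the array.

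Homozygotes of the lines differed in their change from WT for Rpl29 only: the CH homozygotes were 1.07 below WT and the H275R homozygotes 0.15 above it, a difference of -1.22 that was tested directly (adjusted p = 0.0748 by limma over all probe sets, all 4 CH homozygotes below all 3 H275R homozygotes). This call was lost in 5 of the 7 fits that left out 1 array (adjusted p up to 0.263), with the replicate block (0.124), with only the arrays compared (0.276), by the methods' t-test (0.471) and at a threshold of 0.05.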

How the results depend on the processing

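No called difference turned its sign under any alternative. Of 24 named differences 1 did, the uncalled one of the dim Rps3a1 probe set in CH homozygotes against WT (-0.0058, from -0.06 to 0.03 over all settings). The 0 calls of H275R homozygotes and heterozygotes against WT and against each other, and of CH homozygotes against CH heterozygotes, held under every alternative run. The counts below are given without the share of all probe sets called under each alternative, which can change as well. They show how the calls move with the processing and are no result about the members. Between the lines, the count of called members was 17 with an intensity trend and 19 among probe sets above the median level (main 10). In CH homozygotes against WT each of these 2 settings gave 1 (main 0). Against H275R homozygotes (main 1) the count was 0 with the replicate block, with the methods' t-test and at a threshold of 0.05, 2 with an intensity trend, 3 above the median level and 4 among probe sets with 1 symbol. Against H275R heterozygotes (main 4) it was 1 with only the arrays compared, 0 by the methods' t-test and 1 at 0.05. For CH heterozygotes against WT (main 1), only the arrays compared and the methods' t-test gave 0 each. The F test (main 2) gave 1 at 0.05 and 4 above the median level. Of the probe set ratios, CH homozygotes against WT (main 2) gave 1 with the replicate block and 1 at 0.05, CH heterozygotes against WT (main 1) gave 0 with the replicate block, and the lines (main 5) gave 3 at 0.05. Leaving out 1 array at a time, the counts of members spanned 4 to 10 between the lines, 0 to 2 in CH heterozygotes against WT, 0 to 4 in CH homozygotes against H275R heterozygotes and again 0 to 4 against H275R homozygotes, 0 to 1 against WT, and 1 to 5 in the F test. The ratio counts spanned 3 to 5 between the lines, 0 to 1 in CH heterozygotes against WT, 0 to 4 and 0 to 3 in CH homozygotes against H275R heterozygotes and homozygotes, and 0 to 3 against WT. Leave-one-out fits of CH heterozygotes hold 1 array of that group, which is assumed to vary like the others. Residuals of same-numbered arrays of different genotypes correlated at a median of 0.010 (8 of 29 pairs over 0.1). Pairs of different number gave a median of 0.0027 (20 of 85 over 0.1) and ranged from -0.467 to 0.467. These figures pool pairs within a line with pairs across the lines. Within a line, same-numbered pairs gave 0.115, 0.067 and 0.329 (H275R) and 0.429 and 0.273 (CH). Whether the replicate numbers pair the embryos was therefore not decided. The causes of these shifts were not tested.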
